A study of Mus musculus with 6 samples.

Results

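The genes described here are those of heparan sulfate proteoglycans and their synthesis, 33 of 24421 genes in the table, which code for the carrier (core) proteins and for the enzymes that build, sulfate or cleave the sugar chains. They were chosen by name, and all 33 had a row. Of these, 29 had enough reads to be tested. Heparan sulfate is a long sulfated sugar chain that cells attach to a small set of carrier proteins, the heparan sulfate proteoglycans. Enzymes of the Golgi first build a short linker on the carrier, then extend the chain, and then remove acetyl groups and add sulfate at chosen places, so that the finished chain carries a pattern of negative charge to which chemokines, growth factors and other basic proteins bind. In bone marrow such chains help to hold cytokines and chemokines near blood progenitors, and the uptake of DEK from outside the cell has been reported to depend on heparan sulfate.

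The libraries came from polyadenylated RNA of femoral bone marrow of C57BL/6 mice, depleted of lineage-marked cells on columns. Every mouse carried the Dek -/- genotype, so the vehicle libraries are knockout marrow as well. Cells of 3 libraries had been treated with vehicle and cells of 3 libraries with exogenous DEK. Lineage-positive cells, which the design also mentions, were not analysed here. The labels give neither the source or dose of DEK nor the length of treatment, the age or sex of the mice, or whether libraries stem from separate animals, so p-values measure only the spread between these libraries. Reads counted in genes ran from 34875736 to 49128378 per library, and the 33 genes took 0.192 to 0.230% of them.

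Markers of stem and progenitor cells were present, with 10 of 10 tested and a summed level of 6493 to 9589 CPM (counts scaled to a common library size). All 10 neutrophil, 10 B lineage and 9 eosinophil markers were tested too, so having enough reads does not set progenitors apart. Eosinophil markers summed to 3392 to 14340 CPM. Both libraries numbered 3 stood apart: neutrophil markers took 6.48% of counts in vehicle 3 and 5.76% in DEK 3, against 0.638 to 0.855% in the other 4. This share did not separate the groups (2.62 ± 3.35% with vehicle and 2.42 ± 2.90% with DEK, SD, n = 3 each; two-sided p = 0.8 by exact permutation, and no p under 0.1 can be reached). Of the marrow stroma markers, 7 of 10 stayed under 1 CPM in every library, Cxcl12, Lepr and Pdgfra among them, and the 10 summed to 18.6 to 37.2 CPM. In bulk RNA, fewer cells of a type and less RNA per cell cannot be told apart.

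Levels of different genes are compared below as RPKM, the CPM divided by exon length in kilobases. Serglycin (Srgn), the core protein stored with its chains in the granules of blood cells, stood far above every other gene of the pathway. Its level was 1089, 1001 and 1254 RPKM in vehicle libraries 1, 2 and 3 and 1185, 828 and 1186 RPKM in DEK libraries 1, 2 and 3. The groups overlapped, and Srgn alone supplied 90.2 to 94.7% of the summed RPKM of the 12 core proteins. Serglycin also carries chondroitin sulfate, and transcript levels do not show which chain it bore. Heparanase (Hpse), which cuts heparan sulfate chains, came next with a mean of 76.4 RPKM over the 6 libraries, followed by glypican 1 (Gpc1), a core protein anchored in the membrane by a lipid, with 40.5 RPKM.

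By mean RPKM, 10 of the 33 genes lay over 10, 14 between 1 and 10, 4 between 0.1 and 1, and 5 under 0.1. Each step of chain assembly had at least 1 gene over 5 RPKM. The 5 lowest were Sulf1, a sulfatase that edits finished chains outside the cell, the matrix core protein gene Hspg2 (perlecan), Gpc6, Ndst3 and Hs6st2. Sulf1 had 1 read in vehicle 1 and 0 in the other 5 libraries, where 3 reads, the number a count of 0 allows, would be 0.0591 to 0.0893 CPM (the reads carry no molecular identifiers, so this covers counting error only). Hspg2 had between 0 and 7 reads per library, Gpc6 12 reads in vehicle 1, 3 in DEK 2 and 0 elsewhere, and Ndst3 between 0 and 13. These 4 genes were not tested.

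**Figure D1:**
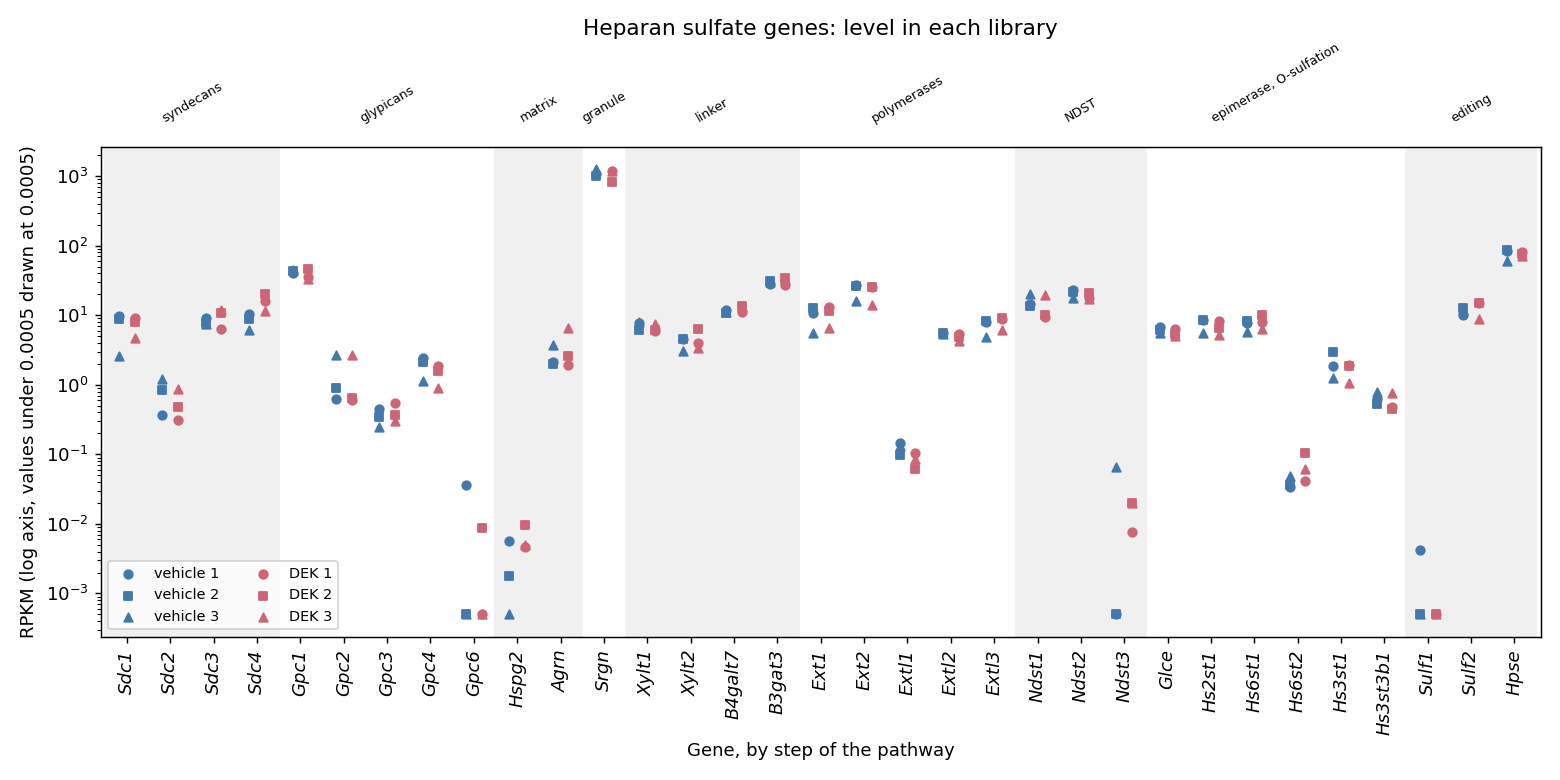
Level of each of the 33 genes in each of the 6 libraries, in RPKM on a log axis, grouped by step of the pathway. Blue marks vehicle and red DEK libraries, and the shape gives the replicate number. Srgn lies over 800 RPKM in every library, and the triangles of the libraries numbered 3 sit apart from the rest for genes such as Sdc1, Gpc2 and Ext1.

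In the comparison of DEK with vehicle without pairing, 0 of the 29 tested genes passed an adjusted p of 0.05 in edgeR's quasi-likelihood test, where 0.0% of all 13803 genes tested passed (background 0). At an unadjusted p under 0.05 there was 1 of 29, against 2.61% of all genes. DESeq2 and limma-voom without pairing also called 0 of 29. The count over all genes is given below for DESeq2. For limma-voom without pairing it is not reported here, so that 0 has no background beside it. Within pairs of equal replicate number, 1 of 29 was called and 28 were not, where 1.28% of all genes were called. The called gene was Sdc4, which was higher with DEK, a direction called in 0.869% of all genes. The median log2 fold change of the 29 genes was -0.06 without pairing and -0.08 within pairs, beside 0.002 and -0.003 over all genes tested. Of the 29 genes, 13 lay above 0 and 16 below 0 in both fits.

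Syndecans are core proteins that cross the membrane and carry heparan sulfate on their outer part. Syndecan 4 (Sdc4, chromosome 2, 164424247 to 164443188, minus strand, mm10), a form that many cell types make and that joins integrins at sites of adhesion, rose with DEK. It had 1262, 856 and 514 reads in vehicle libraries 1, 2 and 3 and 1750, 2501 and 1203 in DEK libraries 1, 2 and 3. Scaled, this was 25.6, 21.4 and 15.3 CPM with vehicle and 39.1, 49.3 and 27.8 CPM with DEK. All 3 DEK libraries lay above all 3 vehicle libraries, a separation in this direction that 3.78% of all genes tested also had. It was the only one of the 29 whose groups did not overlap, with 0 genes separated in the other direction, where 3.41% of all genes were separated that way and 7.19% either way. Within each group the library numbered 3 was the lowest.

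The log2 fold change of Sdc4 was 0.89 ± 0.13 (SE) within pairs, or 1.86-fold (adjusted p = 0.00739, edgeR), with 95% interval 0.61 to 1.17. Since its groups did not overlap, Sdc4 was necessarily higher in 3 of 3 pairs, by 0.61, 1.20 and 0.86 on the log2 scale. Without pairing the size was the same, 0.90 ± 0.27 (SE), and it did not pass (adjusted p = 1.00, edgeR; unadjusted p = 0.0139 across all 13803 genes tested by edgeR). Leaving out pair 2 ended the call within pairs (1.68-fold, adjusted p = 0.452, edgeR, a fit in which 0 genes of all passed). Without both libraries numbered 3, a setting chosen after the data were seen, Sdc4 also passed unpaired, at 1.88-fold (adjusted p = 0.0140, edgeR). The count over all genes in that setting is given below.

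Marker levels of other cells moved beside this rise. The 10 macrophage markers summed to 1101, 1039 and 839 CPM in vehicle libraries 1, 2 and 3 and to 930, 842 and 683 CPM in DEK libraries 1, 2 and 3, lower in each pair. Most of this sum came from Adgre1 and Vcam1, which did not pass (adjusted p = 0.836 and 0.679, edgeR within pairs). Of 9 tested, 3 fell within pairs, where 0.413% of all genes fell. These were C1qb, C1qc and Mertk, none above 17.1 CPM in any library. Of the 9, 8 lay below 0 within pairs and 1, Cd163, lay above 0 without passing. In 2 of the 9, Mertk and Mrc1, all DEK values lay below all vehicle values, as in 3.41% of all genes tested. Mrc1 stood at 73.8, 81.0 and 113 CPM with vehicle and 57.8, 31.4 and 14.7 CPM with DEK. Axl stood at 92.2, 68.7 and 41.3 CPM with vehicle and 22.5, 22.1 and 42.8 CPM with DEK. Neither passed (adjusted p = 0.623 and 0.631, edgeR within pairs). The 9 eosinophil markers summed to 14340, 12981 and 4737 CPM in vehicle libraries 1, 2 and 3 and to 11212, 8143 and 3392 CPM in DEK libraries 1, 2 and 3, lower in each pair. Of these, 2 of 9 fell within pairs against the same 0.413%, 8 of 9 had an unadjusted p under 0.05 there, where 11.5% of all genes did, and 9 of 9 were lower in 3 of 3 pairs, where 17.9% of all genes were. Neutrophil markers ran from 6405 to 67312 CPM with vehicle and from 6180 to 64099 CPM with DEK, and 1 of 10, Lcn2, rose within pairs, where 0.869% of all genes rose. The log2 fold change of Sdc4 was 0.86 in pair 3, where neutrophil markers were high in both libraries, and 0.91 in the fit without that pair. Of 10 megakaryocyte and platelet markers tested, 10 lay below 0 within pairs and 0 passed. Of these, 5 were lower in 3 of 3 pairs and 2 had all DEK values below all vehicle values (17.9% and 3.41% of all genes). Of 7 mast cell and basophil markers tested, 6 lay below 0 within pairs and 0 passed. There, 4 of the 7 had an unadjusted p under 0.05 (edgeR), against 11.5% of all genes. The part of any of these cells in the rise of Sdc4 was not tested.

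The other syndecans differed from Sdc4 in their values and did not pass. Syndecan 1 (Sdc1), known as a marker of plasma cells, stood at 9.72, 8.89 and 2.61 RPKM with vehicle and 9.07, 8.06 and 4.78 RPKM with DEK. It was low in both libraries numbered 3, and the groups overlapped (log2 fold change 0.18 ± 0.21, SE, within pairs; adjusted p = 0.795, edgeR). The 8 plasma cell markers in the table summed to 851 CPM in vehicle 3 and 930 CPM in DEK 3, and to 1025 to 1944 CPM in the other 4, so they were low in the same libraries. B lineage markers were low there too, at 126 CPM in vehicle 3 and 156 CPM in DEK 3, against 364 to 430 CPM in the other 4. Eosinophil markers were also low in these libraries, while neutrophil and erythroid markers were high. The part of any of these cells in the level of Sdc1 was not tested.

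Syndecan 3 (Sdc3), with 9.12, 7.85 and 7.50 RPKM in vehicle libraries 1, 2 and 3 and 6.36, 10.7 and 11.99 RPKM in DEK libraries 1, 2 and 3, moved in both directions, lower in pair 1 and higher in pairs 2 and 3. Syndecan 2 (Sdc2), best known from fibroblasts and vessels, was the lowest of the 4, between 0.310 and 1.22 RPKM, and was lower with DEK in 3 of 3 pairs, with overlapping groups (log2 fold change -0.54 ± 0.24, SE; adjusted p = 0.424, edgeR within pairs). With vehicle, Sdc4 supplied 33.1 to 35.4% of the summed syndecan RPKM, and Sdc4 and Sdc3 were within their spread of each other (8.44 ± 2.11 and 8.16 ± 0.850 RPKM, SD, n = 3 each). With DEK, Sdc4 supplied 50.2, 51.1 and 39.1% in libraries 1, 2 and 3. In DEK 3, Sdc3 remained slightly above Sdc4, at 11.99 against 11.32 RPKM.

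**Figure D2:**
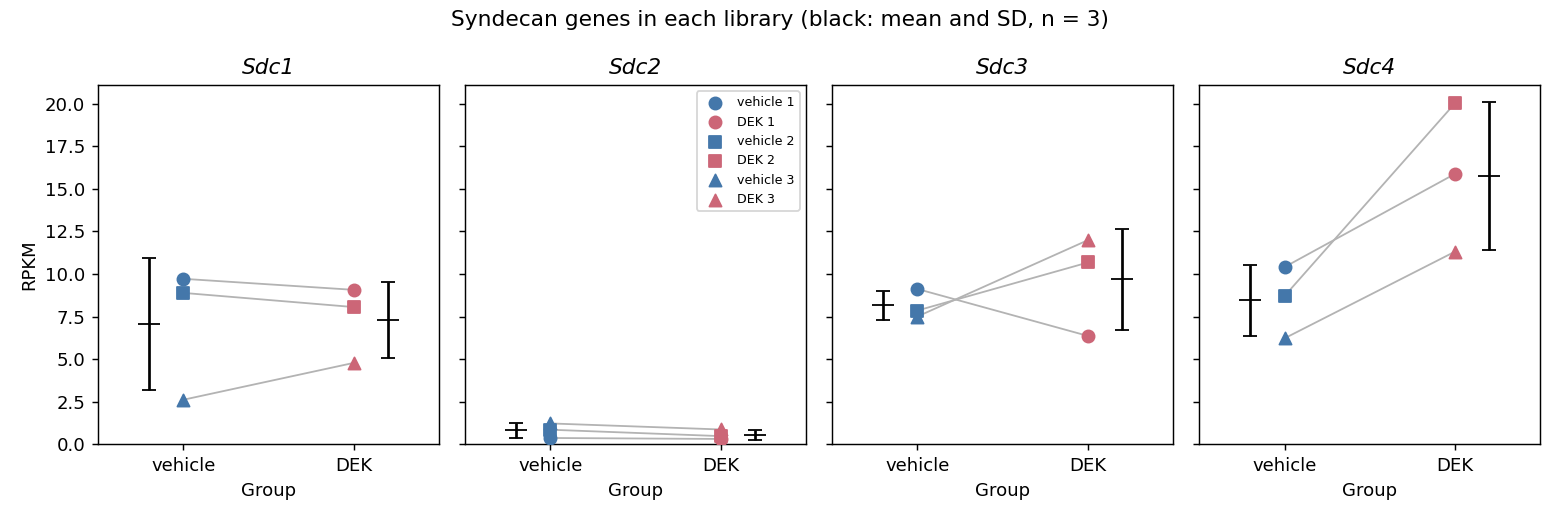
RPKM of the 4 syndecan genes in each vehicle (blue) and DEK (red) library, with grey lines joining equal replicate numbers and black bars for the mean and SD (n = 3). For Sdc4 the 3 DEK values, 11.3 to 20.04, lie above the 3 vehicle values, 6.22 to 10.4, while the lines of Sdc1 and Sdc3 run up in some pairs and down in others.

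Because Sdc4 was the member that passed, the 250 bases before its start are shown with those of Sdc1 and Sdc3, from RefSeq on GRCm38.p6, the assembly of mm10. Capitals mark a match to the NF-kB consensus, the binding motif of a factor that inflammatory signals activate, searched on both strands.
Sdc4: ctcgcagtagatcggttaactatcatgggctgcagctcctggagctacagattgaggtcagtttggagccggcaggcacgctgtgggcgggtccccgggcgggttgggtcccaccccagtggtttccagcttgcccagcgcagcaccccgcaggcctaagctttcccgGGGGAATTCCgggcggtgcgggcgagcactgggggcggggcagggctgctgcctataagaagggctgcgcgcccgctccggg
Sdc1: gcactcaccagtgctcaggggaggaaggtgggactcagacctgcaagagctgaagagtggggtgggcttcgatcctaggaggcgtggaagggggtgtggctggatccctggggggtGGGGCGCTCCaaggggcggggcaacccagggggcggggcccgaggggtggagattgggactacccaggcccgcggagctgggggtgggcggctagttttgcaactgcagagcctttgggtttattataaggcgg
Sdc3: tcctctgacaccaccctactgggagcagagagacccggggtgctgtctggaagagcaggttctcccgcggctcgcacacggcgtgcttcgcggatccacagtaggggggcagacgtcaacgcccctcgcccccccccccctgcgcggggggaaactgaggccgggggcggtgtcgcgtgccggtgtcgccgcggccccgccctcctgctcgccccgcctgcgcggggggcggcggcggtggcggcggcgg
These windows are chr2:164443189-164443438 (minus strand), chr12:8771146-8771395 (plus strand) and chr4:130792287-130792536 (plus strand), and each lies directly before the outer exon bound of its gene in the count table. Sdc4 and Sdc1 had 1 match each, which begins 82 and 134 bases before the start, and Sdc3 had 0. The GC box GGGCGG, also searched on both strands, occurred 4 times before Sdc4 and 3 times each before Sdc1 and Sdc3, without overlap with the marked matches. Of all 32851 such windows, 7.25% held the NF-kB consensus and 32.7% the GC box. Of the 33 genes, 25 had such windows, 31 in all. Of these 31 windows, 3 held the NF-kB consensus and 18 the GC box.

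Glypicans were led by Gpc1 (chromosome 1, 92831686 to 92860196, plus strand), which supplied 89.5 to 94.6% of their summed RPKM. It stood at 40.8, 43.7 and 44.3 RPKM with vehicle and 35.1, 46.0 and 33.3 RPKM with DEK. The groups overlapped, since DEK 2 was the highest of all 6 libraries (log2 fold change -0.19 ± 0.11, SE; adjusted p = 0.551, edgeR within pairs; 95% interval -0.42 to 0.05). Of 4 glypicans tested, 0 passed. Gpc4, at 1.15 to 2.43 RPKM with vehicle and 0.896 to 1.87 RPKM with DEK, was lower in 3 of 3 pairs by 0.37, 0.42 and 0.35 on the log2 scale (adjusted p = 0.460, edgeR), and Gpc3 was higher in 3 of 3 pairs on 19 to 55 reads per library (adjusted p = 0.849, edgeR). The same direction in 3 of 3 pairs was seen in 17.9% of all genes for lower and 16.3% for higher values. Of the 29 heparan sulfate genes tested, 11 were lower in 3 of 3 pairs and 5 were higher. Whether these counts differ from the shares over all genes was not tested.

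Gpc2, a glypican studied mostly in developing neurons, went with the replicate number. It was at 0.630, 0.896 and 2.72 RPKM in vehicle libraries 1, 2 and 3 and at 0.604, 0.635 and 2.71 RPKM in DEK libraries 1, 2 and 3. Agrin (Agrn), a matrix core protein that blood progenitors and monocytes can bind, was also highest in the libraries numbered 3, at 3.70 RPKM with vehicle and 6.65 RPKM with DEK, against 1.94 to 2.59 RPKM in the other 4. Agrn was lower with DEK in pair 1 and higher in pairs 2 and 3, by 0.39 and 0.84 on the log2 scale (adjusted p = 0.470, edgeR within pairs).

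Xylt1 and Xylt2 place the first sugar of the linker on the core protein, and B4galt7 and B3gat3 add later sugars. Of these 4 genes, 0 passed within pairs, with log2 fold changes from -0.16 for Xylt1 to 0.16 for B4galt7. B3gat3 had the highest level of them, 29.7 ± 1.08 RPKM with vehicle and 31.7 ± 3.50 RPKM with DEK (SD, n = 3 each), and its 95% interval within pairs ran from -0.13 to 0.30 on the log2 scale. Xylt2 varied most between libraries, at 4.59, 4.60 and 3.05 RPKM in vehicle libraries 1, 2 and 3 and 4.03, 6.34 and 3.43 RPKM in DEK libraries 1, 2 and 3, lower with DEK in pair 1 and higher in pairs 2 and 3.

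Ext1 and Ext2, whose products together lengthen the chain, were near level within pairs: the log2 fold change was 0.13 ± 0.12 for Ext1 and -0.11 ± 0.09 for Ext2 (SE), and neither passed (edgeR adjusted p = 0.730 and 0.697). Ext1 stood at 10.8, 12.5 and 5.50 RPKM with vehicle and 13.1, 11.4 and 6.53 RPKM with DEK, so that the libraries numbered 3 had the lowest values in both groups. Ext2 was likewise lowest there, at 27.4, 26.5 and 16.3 RPKM with vehicle and 25.8, 25.7 and 14.0 RPKM with DEK. The ratio of Ext1 to Ext2 stayed between 0.338 and 0.508 in all 6 libraries. Extl3, which helps to begin the chain, was higher in 3 of 3 pairs by 0.16, 0.18 and 0.34 on the log2 scale and did not pass (adjusted p = 0.407, edgeR). Extl2 lay in a narrow range of 4.31 to 5.62 RPKM, and Extl1 had 13 to 30 reads per library, too few to bound its change closely (95% interval -1.57 to 0.39).

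Ndst1 and Ndst2 remove acetyl groups from the new chain and put sulfate in their place, the step on which later sulfation depends, and Ndst2 is the form that mast cells need to make heparin. Ndst1 stood at 14.7, 13.6 and 20.3 RPKM in vehicle libraries 1, 2 and 3 and at 9.42, 10.1 and 19.8 RPKM in DEK libraries 1, 2 and 3. It was lower with DEK in pairs 1 and 2, by 0.64 and 0.44 on the log2 scale, and nearly level in pair 3, at -0.04. Within pairs it did not pass (log2 fold change -0.37 ± 0.12, SE; adjusted p = 0.214, edgeR). Without pair 3, where 641 of all genes passed, it did, at -0.54 (adjusted p = 0.000707, edgeR). It also passed unpaired without both libraries numbered 3, a setting chosen after the data were seen (adjusted p = 0.0489, edgeR).

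Ndst2 stood at 22.9, 21.9 and 17.4 RPKM with vehicle and 17.7, 20.8 and 17.3 RPKM with DEK, and its interval within pairs ran from -0.37 to 0.07 on the log2 scale. The ratio of Ndst1 to Ndst2 was 0.643, 0.621 and 1.17 in vehicle libraries 1, 2 and 3 and 0.532, 0.485 and 1.14 in DEK libraries 1, 2 and 3. Ndst1 thus exceeded Ndst2 in the libraries numbered 3 alone. In DEK 3, Ndst2 was near its level in DEK 1 (17.3 and 17.7 RPKM), while Ndst1 was higher (19.8 against 9.42 RPKM). The 10 mast cell and basophil markers were lower in the same libraries, at 1554 and 1977 CPM against 2314 to 3543 CPM in the other 4. Of these markers, 3 stayed under 1 CPM in every library: Cma1, Tpsb2 and Mcpt4. The part of mast cells and basophils in this ratio was not tested.

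The next enzymes reshape the sugar and add sulfate at other positions. Glce, the epimerase, Hs2st1, which sulfates the sugar that Glce makes, and Hs6st1, which sulfates glucosamine, had log2 fold changes of -0.13, -0.18 and 0.16 within pairs. Of the 6 genes of this step, 0 passed. Hs3st1, whose product makes the rare sequence that antithrombin binds, stood at 1.85, 2.95 and 1.27 RPKM with vehicle and 1.93, 1.87 and 1.06 RPKM with DEK. Hs3st3b1 stayed under 1 RPKM, and Hs6st2 had 7 to 26 reads per library.

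After a chain is finished, Sulf2 removes sulfate from it and Hpse cuts it. Sulf2 stood at 10.1, 12.5 and 11.8 RPKM with vehicle and 15.02, 14.98 and 8.79 RPKM with DEK. It was higher with DEK in pairs 1 and 2 and lower in pair 3, by -0.42 on the log2 scale. It did not pass within pairs (1.10-fold, adjusted p = 0.835, edgeR), and did without pair 3 (log2 fold change 0.41, adjusted p = 0.0312, edgeR), a fit in which 641 of all genes passed. Unpaired and without both libraries numbered 3 it did not pass (adjusted p = 0.259, edgeR). Hpse stood at 84.4, 86.4 and 60.0 RPKM with vehicle and 80.8, 74.7 and 71.9 RPKM with DEK, with a log2 fold change of -0.004 ± 0.11 (SE) within pairs and a 95% interval of -0.23 to 0.23.

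**Figure D3:**
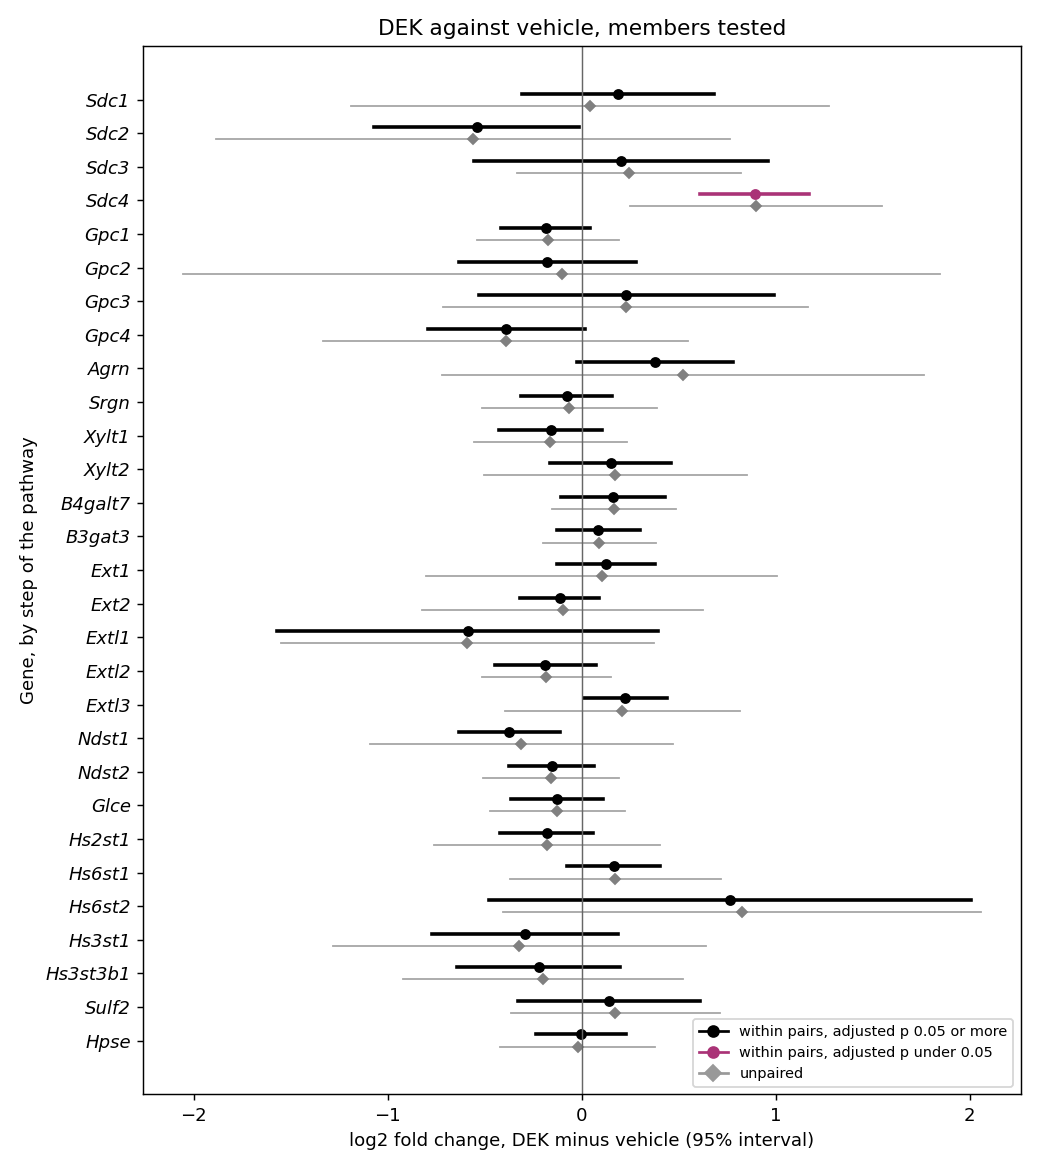
Log2 fold change, DEK minus vehicle, of the 29 genes tested, with 95% intervals. Circles are values within pairs of equal replicate number and grey diamonds the unpaired fit. Sdc4, at 0.89, is the only one drawn as past an adjusted p of 0.05, and intervals without pairing are wider for most genes.

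How closely the data bound a change differed among the 28 genes that were not called within pairs. For 15 of them the 95% interval lay inside a 1.5-fold change in either direction, and for 25 inside a 2-fold change. The 3 outside were Sdc2, Extl1 and Hs6st2. Without pairing, 9 of these 28 intervals lay inside 1.5-fold and 17 inside 2-fold.

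Many of these genes differed between the libraries numbered 3 and the others in the same way in both groups. Of the 29, 7 were higher in the library numbered 3 than in both others of its group, with vehicle and with DEK alike, and 15 were lower. Over all genes tested these shares were 31.5% and 32.8%. Gpc2 was 1.80 and 2.06 higher on the log2 scale in vehicle 3 and DEK 3 than the mean of the others of the group, Sdc2 was 1.08 and 1.11 higher, and Agrn 0.85 and 1.56 higher. Sdc1 fell by 1.82 and 0.83, Ext1 by 1.08 and 0.90, and Gpc4 by 0.96 and 0.92 (values without a test).

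**Figure D4:**
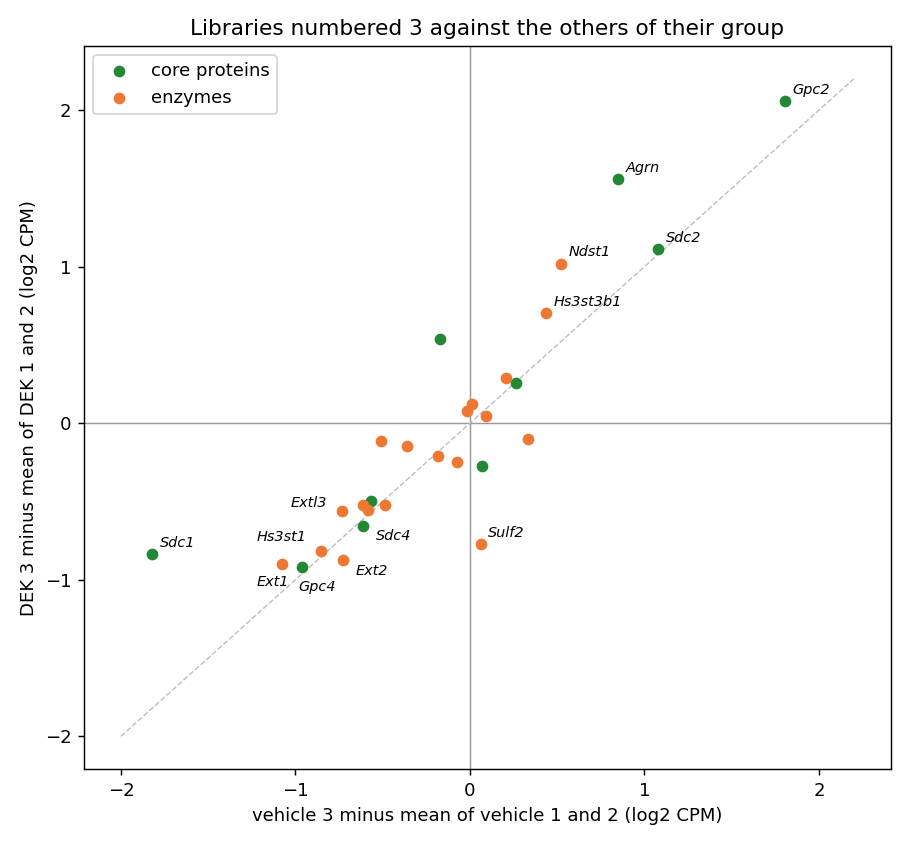
For the 29 genes tested, log2 CPM of the library numbered 3 minus the mean of the other libraries of its group, vehicle on the x axis and DEK on the y axis, with core proteins in green and enzymes in orange. Most points lie near the dashed line of equal differences, from Gpc2 at 1.80 and 2.06 to Sdc1 at -1.82 and -0.83.

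Other genes that serve heparan sulfate were read from lists beside the 33. Among 14 further heparan sulfate genes, 6 were tested and 0 passed within pairs, with a median log2 fold change of -0.03. The smallest p values there were those of Pxylp1, a phosphatase acting on the linker (log2 fold change -0.19, adjusted p = 0.612, edgeR within pairs), and B3galt6, which adds a galactose to the linker (0.17, adjusted p = 0.673, edgeR within pairs). Of 15 genes tested that supply sulfate and activated sugars, 0 passed and the median was -0.05. Slc26a2, a sulfate transporter, was higher in 3 of 3 pairs without passing (1.26-fold, adjusted p = 0.237, edgeR). Of 10 lysosomal genes of heparan sulfate breakdown, 0 passed and the median was -0.06. Arsg, a sulfatase gene of that route, lay at -0.43 on the log2 scale (edgeR adjusted p within pairs 0.281). It was at 25.7 CPM in vehicle 3 and 25.6 CPM in DEK 3, against 5.85 to 10.9 CPM in the other libraries. Exons of Arsg overlap those of Slc16a6 on the opposite strand over 48 of 3395 bases, which adds a small uncertainty.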

How the data were processed

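Read counts per gene were deposited by the authors, who used featureCounts 1.6.1 over exons on mm10 from 1 alignment per library, with no strand or paired option, per the file headers. The submitters' processing notes name Trim Galore, STAR, HTSeq and edgeR. Exons of none of the 33 genes overlap another gene's in the table.

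The software was DESeq2 1.42.0, limma 3.58.1 and edgeR 4.0.16 under R 4.3.3. After filterByExpr, 13803 of 18049 genes with a read were tested, scaled by TMM, with edgeR's quasi-likelihood test (robust, two-sided, Benjamini-Hochberg over all genes tested, threshold 0.05). The main fit had no block. CPM used TMM library sizes, RPKM the exon length of the table, and log2 differences between libraries a pseudocount of 0.1 CPM. Standard errors came from the F statistic. The steps were tested on simulated data. These were built with an effect of the replicate number, so they cannot show whether equal numbers are pairs here.

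Deviations of equal replicate numbers from their group means correlated across genes by 0.58, 0.59 and 0.81, so by the rule that each must exceed 0.1 the numbers were taken as pairs. The labels name no shared animal or day, and unequal numbers 1 and 2 correlated by 0.55 and 0.44, so pairing of these cannot be told from their likeness to each other. The values within pairs come from the fit with the replicate block.

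The members and the gene lists were chosen with earlier results of these data known. All 33 members are named, and of the other lists the called genes and up to 2 uncalled ones with the smallest p within pairs, of which 1 is not reported here.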

Additional observations from a re-analysis of the deposited data

How the results depend on the processing

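Without the replicate block, 0 of 13803 genes and 0 of the 29 were called, at an unadjusted p under 0.05 360 and 1. The replicate block gave 177 genes and 1 of the 29. DESeq2 without the block gave 58 genes and 0 of the 29. Leaving out one library at a time without the block gave 0 to 1 genes, 0 of the tested heparan sulfate genes and a median log2 fold change of -0.104 to 0.052. Leaving out one pair with the replicate block gave 0 to 641 genes (181 without pair 1, 0 without pair 2 and 641 without pair 3), 0 to 3 of the heparan sulfate genes (none without pair 2; Sdc4, Ndst1 and Sulf2 without pair 3) and a median of -0.098 to -0.002. The group difference in the neutrophil marker share, -0.199 percentage points, ran from -1.87 to 1.74 when one library was left out. 5 settings were chosen after seeing the data. With the replicate block, DESeq2 gave 347 genes, limma-voom 171, RLE scaling 176 and no low-count filter 349, and each called 1 of the heparan sulfate genes, Sdc4. Without both libraries numbered 3 and without the block there were 168 genes and 2 of the heparan sulfate genes, Sdc4 and Ndst1. Sdc4 lay between 1.61-fold and 2.12-fold higher in every setting run. The cause of these differences was not tested. Genes with few reads, such as Extl1 and Hs6st2, could not be bounded closely at this depth.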

Other observations

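Chondroitin sulfate shares its linker with heparan sulfate and sits on other core proteins. Of 5 of its core protein genes tested, 1 rose within pairs and 0 fell, where 0.869% of all genes rose. That gene was Vcan, which encodes versican, a large matrix proteoglycan that monocytes and macrophages can make. Vcan stood at 447, 437 and 414 CPM in vehicle libraries 1, 2 and 3 and at 945, 978 and 605 CPM in DEK libraries 1, 2 and 3. All DEK values were above all vehicle values, with 1.91-fold within pairs (log2 fold change 0.93 ± 0.13, SE; adjusted p = 0.00754, edgeR), and it did not pass unpaired (adjusted p = 0.791, edgeR). Cd74, the invariant chain of class II antigen presentation, which can carry chondroitin sulfate, was at 3441 to 3599 CPM with vehicle and 4158 to 5625 CPM with DEK, also without overlap. It did not pass (1.42-fold, adjusted p = 0.0685, edgeR within pairs). Thus 2 of the 5 had all DEK values above all vehicle values, as did 3.78% of all genes tested. Exons of Cd74 overlap those of Mir5107 by 12 bases. Cd44, a receptor for hyaluronan of which some forms carry chains, lay at 0.17 on the log2 scale (edgeR adjusted p within pairs 0.546).

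Of 15 chondroitin and dermatan sulfate synthesis genes tested, 0 passed within pairs, and the median log2 fold change was -0.09. Csgalnact2, an enzyme that begins the chondroitin chain, was at 304, 266 and 227 CPM in vehicle libraries 1, 2 and 3 and at 264, 189 and 193 CPM in DEK libraries 1, 2 and 3, lower in each pair with overlapping groups (log2 fold change -0.31 ± 0.10, SE; adjusted p = 0.199, edgeR). Dse, the epimerase that forms dermatan sulfate, lay at -0.26 on the log2 scale (edgeR adjusted p within pairs 0.374).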
